A study of Homo sapiens with 5 samples.

Results

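The genes described here were 49 WNT ligands, receptors, secreted antagonists, inhibitors and nuclear effectors, chosen by symbol and matched to the Ensembl identifiers of the count tables through the GENCODE 29 annotation. They comprised 16 WNT ligands, 12 receptors of the frizzled and LRP families, 8 secreted antagonists, 7 inhibitors that act on receptor turnover or inside the cell, and 6 genes for beta-catenin and its nuclear partners. Of the 49, 46 were listed in the count tables of both cell lines, out of 31029 genes listed in both, and 35 were read often enough in these libraries to be tested.

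RNA from the human melanoma line 501Mel (2 libraries) and from the immortalised human melanocyte line Hermes 3A (3 libraries) was sequenced. In every library the cells carried an shRNA against BPTF, the largest subunit of the NURF chromatin remodelling complex, delivered by lentivirus and followed by 5 days of selection in puromycin at 3 µg per ml. Cells with a control shRNA were not analysed here, so each difference below is between 2 lines that both carried the shRNA, and no effect of the shRNA was measured. The study used different shRNAs against BPTF, and which of them a library received is not given in the sources used here. The lines also differed in their medium. Both were grown with serum, and Hermes 3A cells also received phorbol ester (TPA), cholera toxin, stem cell factor and endothelin-1. Each group is a single established line, so the difference between melanoma and melanocyte, the difference between these lines, the difference between the media and a different response of each line to the shRNA cannot be told apart.

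WNT ligands bind a frizzled receptor together with the co-receptor LRP5 or LRP6. In the canonical branch this halts the destruction of beta-catenin by a complex that contains APC and an AXIN protein, and beta-catenin then joins TCF and LEF factors on DNA. Several genes that the pathway switches on encode its own inhibitors, among them AXIN2, NKD1, RNF43 and ZNRF3. WNT signals act in the formation of melanocytes from the neural crest and in their renewal in the hair follicle, and MITF, the main regulator of the lineage, is a target of beta-catenin with LEF1.

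The libraries held 30073071 to 43032311 counts each. Levels are given in CPM, the count a gene would have in a library of 1000000 counts, with the values of 501Mel replicates 1 and 2 first and those of Hermes 3A replicates 1, 2 and 3 after them. Differences are log2 fold changes of 501Mel over Hermes 3A with their standard errors (SE), from edgeR's quasi-likelihood test over 17918 genes. A gene was called changed where its Benjamini-Hochberg adjusted p, taken over all of those genes, was under 0.05. BPTF itself stood at 65.8 and 57.8 CPM in the 501Mel libraries and at 45.8, 51.6 and 54.1 CPM in the Hermes 3A libraries. With no control shRNA beside them, these levels do not measure the depletion. All 9 melanocyte lineage markers, MITF and TYR among them, exceeded 1 CPM in every library. MITF did not pass the test between the lines (log2 fold change 0.16, adjusted p = 0.422), nor did KIT. SOX10, PAX3, TYR, TYRP1, PMEL and MLANA were higher in Hermes 3A, by 0.68 to 1.39 on the log2 scale, and DCT was higher in 501Mel (log2 fold change 6.87, adjusted p = 1.1e-05). The 9 markers summed to 13184 and 20121 CPM in 501Mel and to 32286 to 33345 CPM in Hermes 3A. Of the 7 keratinocyte markers, 4 were listed for 501Mel and 2 for Hermes 3A, and only KRT10 exceeded 1 CPM. The endothelial markers, of which 3 of 4 were listed in each line, summed to at most 0.612 CPM. The 8 fibroblast markers summed to 4.41 to 19.8 CPM in 501Mel and to 81.0 to 191 CPM in Hermes 3A, where COL1A2 alone gave 69.5 to 187 CPM. COL3A1 was at 0 in Hermes 3A replicate 1, and 1 to 4 of the 8 markers exceeded 1 CPM in 501Mel and 2 to 4 in Hermes 3A. The part of these cells or levels in the differences below was not tested.

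Several inhibitors of the pathway differed in level between the lines, in both directions. RNF43, ZNRF3, AXIN2, NKD1 and NKD2 were higher in 501Mel, and of the called secreted antagonists DKK1, DKK3 and SFRP1 were higher in Hermes 3A and DKK2 in 501Mel. Among the receptors FZD7 and FZD5 were higher in 501Mel and FZD1, FZD2, FZD6, FZD8 and FZD9 in Hermes 3A, and among the nuclear factors TCF7 and LEF1 were higher in 501Mel and TCF7L1 and TLE4 in Hermes 3A. CTNNB1, APC, AXIN1, LRP5, LRP6 and TCF7L2 did not pass the test. In all, 22 of the 35 tested members were called, or 22 of all 49. Over all genes tested 48.3% were called, 24.2% higher in 501Mel and 24.1% higher in Hermes 3A, so that the count of 10 members higher in 501Mel and 12 higher in Hermes 3A stood in a setting where about every other gene differed. Of the 35 tested members, 21 were called and also differed by at least 2-fold, and 34.1% of all genes tested met both criteria. The median log2 fold change of the tested members was -0.00 (0.02 over all genes), and their median absolute change was 1.35 (0.79 over all genes). An absolute log2 fold change above 3 was seen for 12 of the 35 (34.3%) and for 12.1% of all genes. A gene could be tested when it was read often enough in a single line. This held for WNT4, WNT9A, DKK3 and NKD2, whose changes could hardly be small. The members were also chosen with earlier results of these data known, so these shares describe the list and test nothing. In bulk RNA, fewer cells that express a gene and less of its RNA per cell cannot be told apart.

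**Figure D1:**
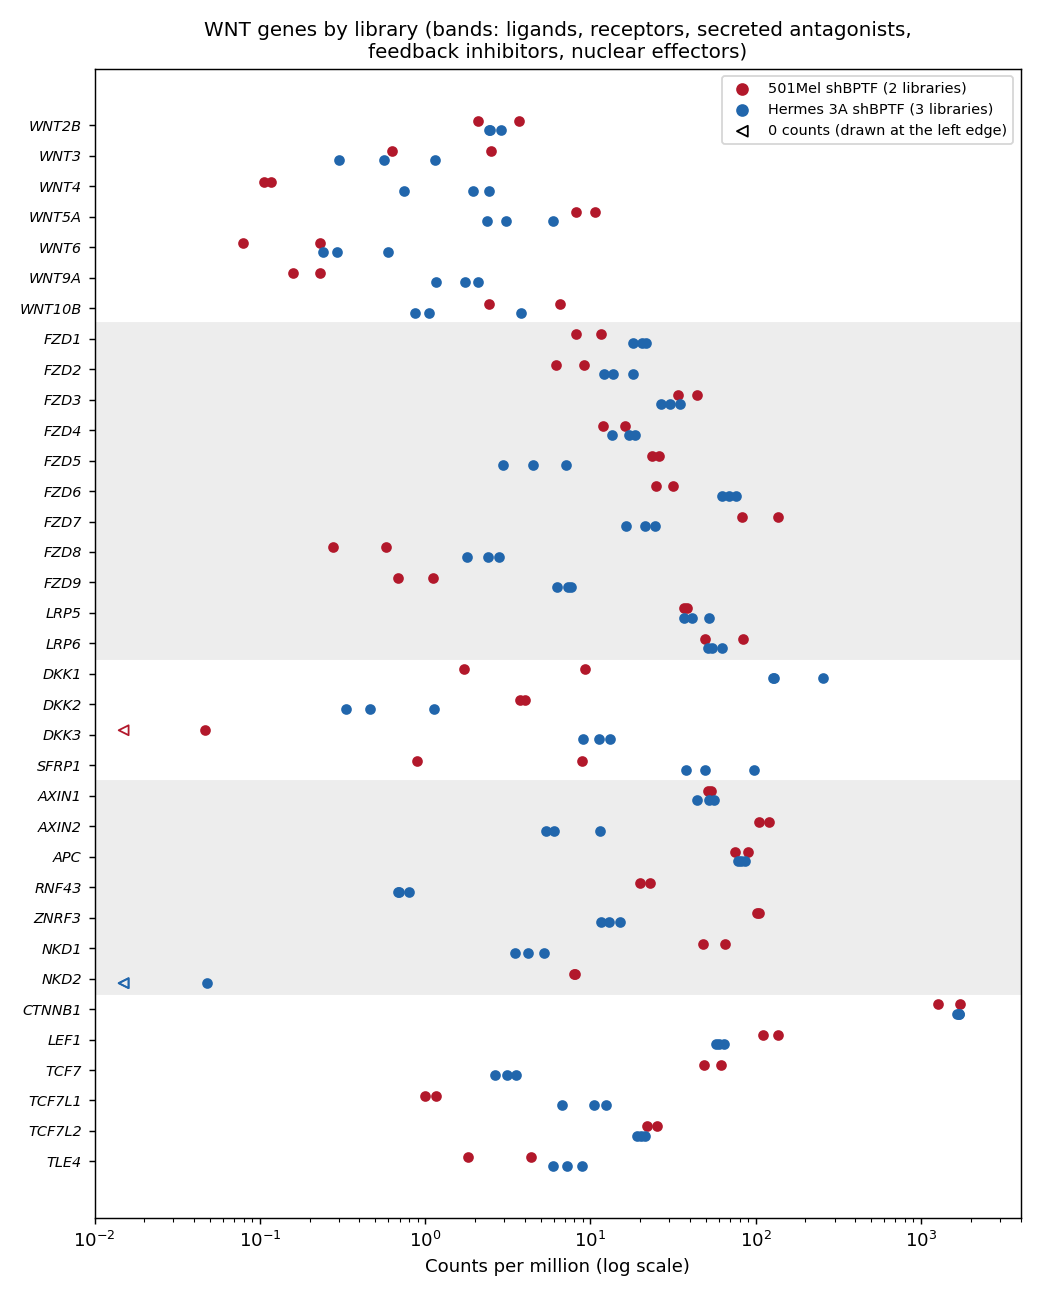
Level of each tested member in each library, in CPM on a log scale, with 501Mel libraries in red and Hermes 3A libraries in blue, grouped by role from ligands at the top to nuclear effectors at the bottom. The 5 called inhibitors in the second grey band (AXIN2, RNF43, ZNRF3, NKD1 and NKD2) have both red points to the right of all blue points, whereas for DKK1, DKK3 and SFRP1 all blue points lie to the right. Among all genes tested, 38% had both 501Mel libraries above all Hermes 3A libraries, and the reverse held for 31.9%.

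Ligands had few reads. Their summed level was 16.4 to 22.5 CPM in 501Mel and 11.01 to 16.6 CPM in Hermes 3A. Of the 16 ligands only 7 were tested, of which 2 were called (28.6%, against 48.3% of all genes tested). Both were higher in Hermes 3A, the only line in which they were read often enough to be tested. Their shared direction is therefore no result about ligands. WNT4, a ligand known from kidney and gonad development, was at 0.116 and 0.106 CPM in 501Mel and at 0.744, 2.42 and 1.96 CPM in Hermes 3A. All Hermes 3A libraries lay above both 501Mel libraries, which held 5 and 4 counts against 31, 99 and 59. The log2 fold change was -3.95 (SE 0.698, adjusted p = 0.00327). WNT9A, a ligand that acts in skeletal joint formation, was at 0.232 and 0.158 CPM in 501Mel and at 2.09, 1.74 and 1.16 CPM in Hermes 3A. Its groups did not overlap either, with a log2 fold change of -3.14 (SE 0.540, adjusted p = 0.00295).

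WNT5A, a ligand that mostly signals without beta-catenin and is linked to melanoma cell motility, was read in every library. It stood at 8.23 and 10.7 CPM in 501Mel and at 5.93, 2.37 and 3.09 CPM in Hermes 3A. Both 501Mel libraries were above the 3 Hermes 3A libraries, of which replicate 1 was the nearest. The difference missed the threshold in edgeR (log2 fold change 1.23, 95% interval 0.19 to 2.28, adjusted p = 0.0543) and passed it in DESeq2 (adjusted p = 0.0306). Of the 5 edgeR fits that left out a library, only the one without Hermes 3A replicate 1 passed the threshold (log2 fold change 1.74, adjusted p = 0.00506). Under a replicate block in edgeR the difference missed it (adjusted p = 0.112).

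The canonical ligands WNT10B and WNT3 varied as much within the lines as between them. WNT10B was at 6.51 and 2.43 CPM in 501Mel and at 3.79, 1.05 and 0.865 CPM in Hermes 3A, and the groups overlapped. In both lines replicate 1 held the most. Its log2 fold change of 1.13 (adjusted p = 0.243) became 2.16 (adjusted p = 0.0148) without Hermes 3A replicate 1. WNT3 was at 2.51 and 0.634 CPM in 501Mel and at 1.15, 0.563 and 0.299 CPM in Hermes 3A, again with overlap (log2 fold change 1.12, adjusted p = 0.242). WNT2B, at 2.09 to 3.69 CPM over all libraries, gave a log2 fold change of 0.10 with a 95% interval of -0.80 to 1.00. Of its exonic bases 21.2% are shared with ST7L on the other strand, and whether strand was used in counting is not given in the sources used here. WNT6 stayed below 0.599 CPM in every library and was not called (adjusted p = 0.171).

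For the remaining 9 ligands the depth allowed little. WNT1, WNT2, WNT3A and WNT7A had 3 counts or fewer in each line, which is the floor used here (3 counts, or 0.0697 to 0.0998 CPM), so no fold is given. WNT10A had 0 counts in 501Mel and 5 in Hermes 3A, at least 1.20-fold higher in Hermes 3A when the floor of 3 counts stands for the 501Mel libraries together. WNT16 had 10 counts in 501Mel and 2 in Hermes 3A, a depth-scaled ratio of 6.96 with a 95% counting interval of 1.48 to 65.3. WNT5B had at most 7 and WNT7B at most 6 counts in any library. WNT11 reached 18 counts in 501Mel replicate 1 and had 1 to 3 in the others. Counting intervals and floors cover counting error only, since PCR copies are not independent molecules.

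Receptors were read more deeply, with sums of 281 to 397 CPM in 501Mel and 272 to 299 CPM in Hermes 3A. The sums overlapped, while 7 of the 11 tested receptors were called, against 48.3% of all genes tested. FZD7, a frizzled receptor found in stem cells and many tumours, was at 136 and 82.4 CPM in 501Mel and at 24.5, 16.5 and 21.3 CPM in Hermes 3A. The lower 501Mel library still lay above every Hermes 3A library. The log2 fold change was 2.32 (SE 0.264, adjusted p = 0.000511), a 5.00-fold difference. FZD5, a receptor needed in eye and gut development, was at 26.03 and 23.7 CPM in 501Mel and at 7.15, 4.48 and 2.96 CPM in Hermes 3A. The groups were again separate, with a log2 fold change of 2.27 (SE 0.372, adjusted p = 0.00240).

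The receptors that were higher in Hermes 3A included FZD6, which acts in planar polarity of skin and hair. It was at 31.7 and 25.0 CPM in 501Mel and at 62.1, 68.9 and 76.0 CPM in Hermes 3A. All Hermes 3A libraries lay above both 501Mel libraries, with a log2 fold change of -1.35 (SE 0.168, adjusted p = 0.000741). FZD9, a receptor gene of the region deleted in Williams syndrome, was at 1.12 and 0.687 CPM in 501Mel and at 7.32, 6.29 and 7.61 CPM in Hermes 3A. Its Hermes 3A libraries were close to one another and far from the 501Mel pair (log2 fold change -3.03, SE 0.388, adjusted p = 0.000839). FZD8 was the least expressed of the called receptors, at 0.279 and 0.581 CPM (12 and 22 counts) in 501Mel and at 1.8, 2.79 and 2.39 CPM in Hermes 3A. These groups did not overlap, and the log2 fold change was -2.49 (SE 0.507, adjusted p = 0.00589).

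FZD1 and FZD2, near relatives of FZD7, moved in the direction opposite to it. FZD1 was at 11.6 and 8.22 CPM in 501Mel and at 20.6, 18.2 and 21.6 CPM in Hermes 3A (log2 fold change -1.09, SE 0.235, adjusted p = 0.00758). FZD2 was at 9.16 and 6.18 CPM in 501Mel and at 18.1, 12.1 and 13.8 CPM in Hermes 3A. Neither gene's groups overlapped. The FZD2 difference (log2 fold change -1.01, SE 0.304, adjusted p = 0.0280) lost its call without 501Mel replicate 2 (adjusted p = 0.138) and without Hermes 3A replicate 3 (adjusted p = 0.0530).

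The 4 receptors that were not called were read deeply enough to bound their difference. FZD3, which acts in axon guidance, was at 44.1 and 34.1 CPM in 501Mel and at 26.6, 34.6 and 30.2 CPM in Hermes 3A (log2 fold change 0.30, 95% interval -0.11 to 0.71). FZD4, a receptor for norrin as well as WNT ligands, was at 16.3 and 11.9 CPM in 501Mel and at 13.6, 17.2 and 18.7 CPM in Hermes 3A (log2 fold change -0.29, 95% interval -0.83 to 0.25). In both cases the groups overlapped. FZD4 shares 18.9% of its exonic bases with PRSS23 on the other strand, and PRSS23 had 12 and 19 counts in 501Mel against 745, 778 and 320 in Hermes 3A. The part of PRSS23 reads in the FZD4 values was not tested. The co-receptor LRP5 was at 36.8 and 38.6 CPM in 501Mel and at 52.3, 37.0 and 41.4 CPM in Hermes 3A, a log2 fold change of -0.28 with a 95% interval of -0.76 to 0.20. Its partner LRP6 was at 83.8 and 49.7 CPM in 501Mel and at 51.7, 54.3 and 62.7 CPM in Hermes 3A, a log2 fold change of 0.18 with a 95% interval of -0.34 to 0.70. The LRP6 values of Hermes 3A lay between those of the 501Mel libraries. FZD10 had 4 and 1 counts in 501Mel and was not listed for Hermes 3A.

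Secreted antagonists differed in their summed level, with sums of 6.37 to 22.3 CPM in 501Mel and 174 to 366 CPM in Hermes 3A. Of the 8 antagonists only 4 were tested, and all 4 were called, where 48.3% of all genes tested were called. DKK3 was read often enough to be tested only in Hermes 3A. DKK1, which blocks canonical signalling by binding LRP5 and LRP6, was at 9.27 and 1.72 CPM in 501Mel and at 254, 129 and 127 CPM in Hermes 3A. Even the lowest Hermes 3A library lay far above the higher 501Mel library. The log2 fold change was -5.03 (SE 0.811, adjusted p = 0.00319). SFRP1, a secreted frizzled-related protein that binds WNT ligands, was at 8.90 and 0.898 CPM in 501Mel and at 98.0, 49.2 and 38.0 CPM in Hermes 3A. Its groups were also separate, with a log2 fold change of -3.74 (SE 0.964, adjusted p = 0.0188).

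DKK1 and SFRP1 shared a split within 501Mel, where replicate 1 held several times more of each than replicate 2. The summed fibroblast markers split the same way, at 19.8 CPM in 501Mel replicate 1 and 4.41 CPM in replicate 2, and were higher in Hermes 3A as well. That excess in Hermes 3A came from COL1A2, the only fibroblast marker called, while COL1A1 (log2 fold change 2.35, adjusted p = 0.0514), COL3A1, PDGFRA and LUM had values toward 501Mel that were not called. The part of these markers in the DKK1 and SFRP1 values was not tested. Both calls were lost when genes with low counts were kept in the fit (adjusted p = 0.0561 for DKK1 and 0.153 for SFRP1), and that of SFRP1 also without Hermes 3A replicate 1 (adjusted p = 0.0540). DKK1 shares 9.61% of its exonic bases with the antisense gene PRKG1-AS1, which had at most 33 counts in a library.

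DKK3, a dickkopf relative that does not bind LRP6 like DKK1, gave the largest ratio among the antagonists. It had 2 and 0 counts in 501Mel and 545, 459 and 273 counts in Hermes 3A. Scaled for depth it was 459 times higher in Hermes 3A, with a 95% counting interval of 127 to 3792 (adjusted p = 0.000112 in edgeR). SFRP4, another frizzled-related protein, had 0 counts in both 501Mel libraries and 9, 7 and 13 counts in Hermes 3A, at least 6.94-fold higher in Hermes 3A against the floor of 3 counts for the line. It was too low to be tested in edgeR and passed the threshold in DESeq2, which tested more genes (adjusted p = 0.00368). DKK2 went the other way. This antagonist, which can also stimulate signalling in some settings, was at 4.04 and 3.72 CPM in 501Mel and at 1.13, 0.465 and 0.333 CPM in Hermes 3A. Both 501Mel libraries were above all Hermes 3A libraries (log2 fold change 2.49, SE 0.562, adjusted p = 0.00904). SFRP5 had 2 counts in each line, WIF1 had 1 and 0 counts in 501Mel and was not listed for Hermes 3A, and SFRP2 had 4, 0 and 0 counts in Hermes 3A and was not listed for 501Mel.

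Inhibitors of receptor turnover and inside the cell summed to 431 to 444 CPM in 501Mel and 151 to 167 CPM in Hermes 3A. Of the 7 tested, 5 were called, against 48.3% of all genes tested, and all 5 were higher in 501Mel. RNF43 and ZNRF3 are membrane ubiquitin ligases that remove frizzled receptors from the cell surface. RNF43 was at 23.1 and 20 CPM in 501Mel and at 0.696, 0.685 and 0.798 CPM in Hermes 3A. ZNRF3 was at 101 and 105 CPM in 501Mel and at 15.2, 11.6 and 13 CPM in Hermes 3A. Replicates of each line lay close together for both ligases, and the lines did not overlap. The log2 fold change was 4.82 for RNF43 (SE 0.268, adjusted p = 3.01e-05) and 2.89 for ZNRF3 (SE 0.181, adjusted p = 4.54e-05). In GENCODE 29, RNF43 shares 57.6% of its exonic bases with AC004687.2 on its own strand, which was listed for neither line, and 20.3% with the antisense gene TSPOAP1-AS1, which had 1, 1 and 3 counts in Hermes 3A and was not listed for 501Mel. A further 1.91% is shared with SUPT4H1 on its own strand, which had 4236 and 4005 counts in 501Mel and 3123, 2988 and 2204 in Hermes 3A; the part of its reads in the RNF43 values was not tested.

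AXIN2, a scaffold of the destruction complex and a widely used readout of canonical signalling, was at 105 and 121 CPM in 501Mel and at 5.4, 11.4 and 6.05 CPM in Hermes 3A. The lines were separate by far more than their replicates, with a log2 fold change of 3.83 (SE 0.305, adjusted p = 0.000127). Of its exonic bases 25.2% are shared with AC004805.1 on the same strand, which had 0, 3 and 0 counts in Hermes 3A and was not listed for 501Mel. NKD1 and NKD2 are relatives of naked cuticle, which bind Dishevelled proteins. NKD1 was at 65.2 and 48.1 CPM in 501Mel and at 4.20, 3.50 and 5.22 CPM in Hermes 3A (log2 fold change 3.65, SE 0.242, adjusted p = 5.75e-05). NKD2 had 345 and 300 counts in 501Mel and 2, 0 and 0 counts in Hermes 3A, a depth-scaled ratio of 449 with a 95% counting interval of 124 to 3715 (adjusted p = 0.000168 in edgeR). NKD2 was thus close to unread in the melanocyte line and read often enough to be tested only in 501Mel, whereas NKD1 was read in every library.

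The core scaffolds behaved differently from AXIN2. AXIN1 was at 51.5 and 53.8 CPM in 501Mel and at 44.2, 51.9 and 55.7 CPM in Hermes 3A. APC was at 89.4 and 75.4 CPM in 501Mel and at 81.2, 78.1 and 85.9 CPM in Hermes 3A. Groups overlapped for both genes. The 95% interval of the log2 fold change was -0.35 to 0.34 for AXIN1 and -0.39 to 0.28 for APC, and the sign of these near-zero values turned under some alternatives.

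**Figure D2:**
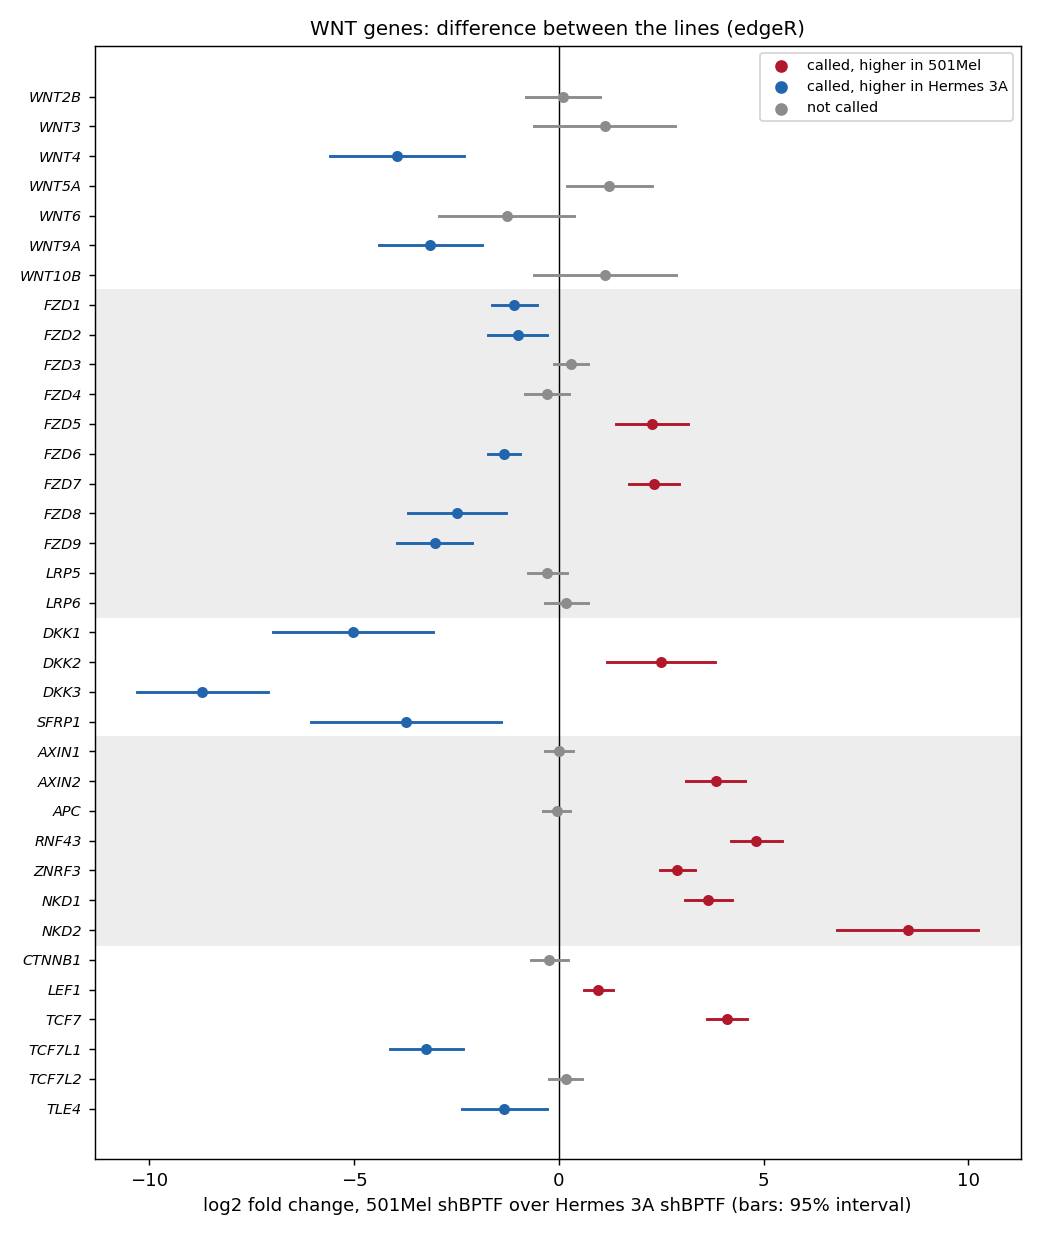
Log2 fold change of 501Mel over Hermes 3A for the 35 tested members, with 95% intervals from edgeR; red marks genes called higher in 501Mel, blue genes called higher in Hermes 3A and grey genes that were not called. The called inhibitors lie to the right of zero, 3 of the 4 antagonists to the left and the receptors on both sides; the fitted values of DKK3 and NKD2 rest on 2 counts in the lower line and are not bounds.

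CTNNB1, the gene for beta-catenin, had the highest level per length of the tested members, with means of 486 CPM per kb of transcript in 501Mel and 547 in Hermes 3A, and did not pass the test. In CPM it was at 1260 and 1721 CPM in 501Mel and at 1662, 1687 and 1692 CPM in Hermes 3A. The Hermes 3A values lay between those of the 501Mel libraries, with a log2 fold change of -0.24 (95% interval -0.69 to 0.22). RNA counts do not measure the stability of the protein. TCF7, which encodes TCF1, was at 48.4 and 62.0 CPM in 501Mel and at 2.64, 3.52 and 3.13 CPM in Hermes 3A, and no library of one line came near the other (log2 fold change 4.10, SE 0.209, adjusted p = 2.11e-05). LEF1, the partner of beta-catenin at the MITF promoter, was at 136 and 111 CPM in 501Mel and at 64.7, 59.98 and 57.1 CPM in Hermes 3A. Its groups were separate at a smaller distance, with a log2 fold change of 0.96 (SE 0.151, adjusted p = 0.00200).

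TCF7L1, which encodes TCF3 and acts mostly as a repressor, went the opposite way. It was at 0.999 and 1.16 CPM in 501Mel and at 6.72, 12.4 and 10.5 CPM in Hermes 3A. All Hermes 3A libraries lay above both 501Mel libraries (log2 fold change -3.24, SE 0.382, adjusted p = 0.000588). TCF7L2, which encodes TCF4, was at 25.4 and 22.1 CPM in 501Mel and at 19.2, 21.4 and 20.3 CPM in Hermes 3A. Although its groups did not overlap in CPM, the difference was small and not called (log2 fold change 0.16, 95% interval -0.23 to 0.56). Over all genes tested, the groups did not overlap for 69.9% (501Mel above for 38% and Hermes 3A above for 31.9%). TLE4, a Groucho co-repressor, was at 4.35 and 1.82 CPM in 501Mel and at 8.91, 5.97 and 7.25 CPM in Hermes 3A. Its log2 fold change of -1.33 (SE 0.446, adjusted p = 0.0411) lost its call without 501Mel replicate 2, without Hermes 3A replicate 1 and without Hermes 3A replicate 3, where the adjusted p was 0.157, 0.0687 and 0.0781.

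To compare the members of a family with one another, CPM was divided by the median length of each gene's transcripts and expressed as a share of the family's sum in each library. Among the frizzled receptors FZD7 led in 501Mel, with 50.8% ± 4.39 (SD, n = 2), and FZD6 led in Hermes 3A, with 48.9% ± 3.88 (SD, n = 3). The same genes held 10.5% ± 1.91 in Hermes 3A and 18.8% ± 1.91 in 501Mel. LEF1 led the TCF/LEF factors in both lines, at 55.2% ± 6.15 in 501Mel and 59.4% ± 5.01 in Hermes 3A. The second place differed, since TCF7 held 32.8% ± 6.78 in 501Mel and 4.0% ± 0.431 in Hermes 3A, where TCF7L2 held 21.0% ± 0.555 and TCF7L1 15.6% ± 4.10. TCF7L1 made up only 0.788% ± 0.110 of the family in 501Mel.

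Among the antagonists DKK1 took 90.7% ± 1.15 of the sum in Hermes 3A. In 501Mel its share was 75.2% in replicate 1 and 48.6% in replicate 2, where DKK2 held 47.9%. In that library DKK2 led with union exon length, at 46.8% against 42.2% for DKK1, and without division by length DKK2 led on average over the 501Mel libraries, at 38.3% against 34.3%. Among the ligands WNT5A took 41.9% and 73.3% in the 501Mel libraries and 44.5%, 25.4% and 34.1% in the Hermes 3A libraries, so the lines overlapped. WNT4 took 0.834% and 1.02% in 501Mel and 7.87%, 36.5% and 30.5% in Hermes 3A, and was the leading ligand by this measure in Hermes 3A replicate 2. The order of the ligands depended on the length used. With the union of all exons as length, WNT10B had the highest mean share in both lines. It was at 41.0% ± 12.2 against 36.5% ± 20.1 for WNT5A in 501Mel, and at 23.9% ± 13.8 against 18.2% ± 4.15 in Hermes 3A. These spreads overlap, and WNT10B led only in replicate 1 of each line. In 501Mel replicate 2 WNT5A led, at 50.7% against 32.4% for WNT10B. WNT4 led in Hermes 3A replicates 2 and 3, at 23.1% and 19.3%.

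**Figure D3:**
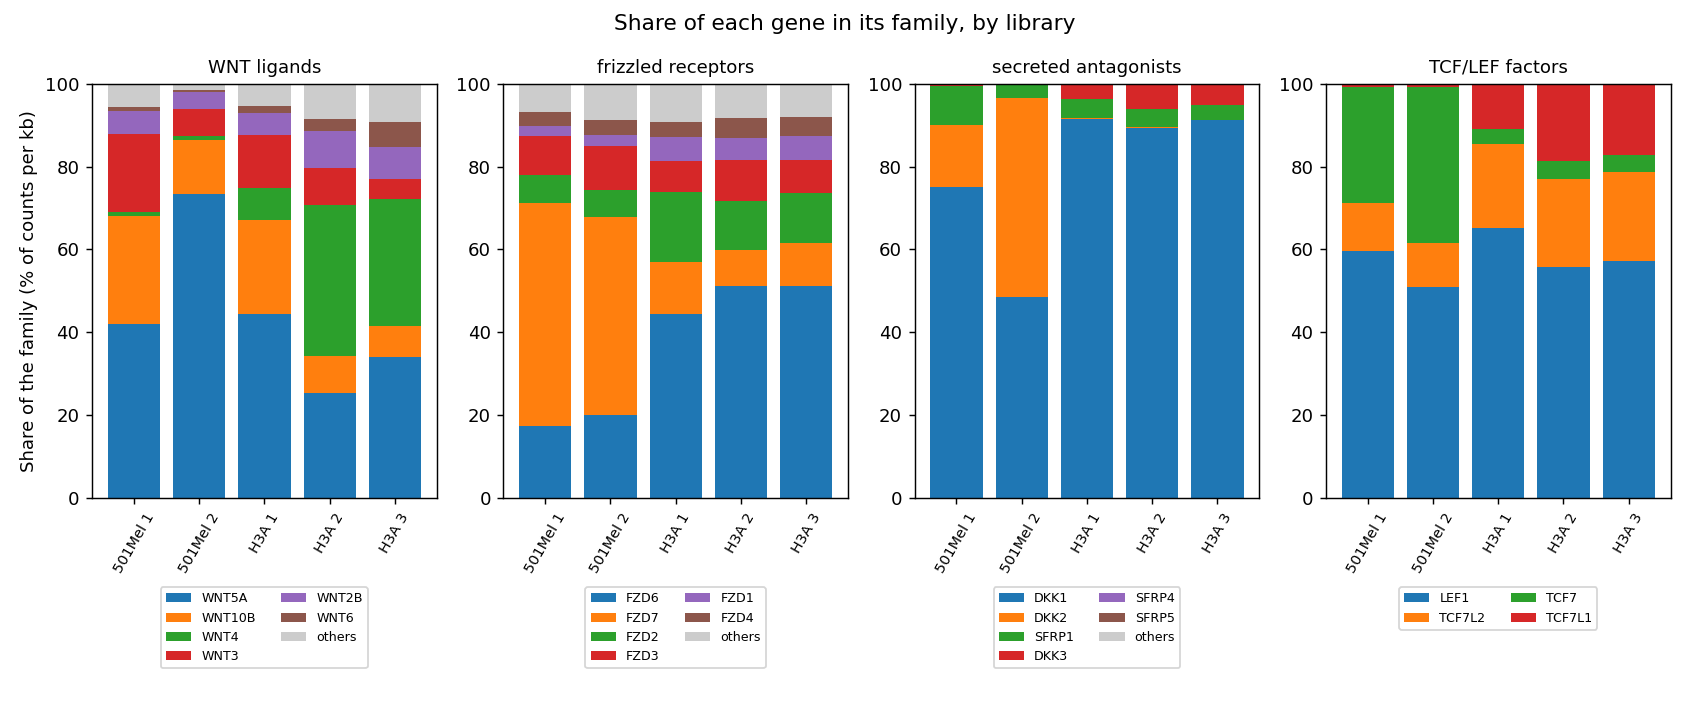
Share of each gene in the summed CPM per kb (median transcript length) of its family, in percent, for each of the 2 libraries of 501Mel and the 3 of Hermes 3A (H3A). The orange FZD7 block is the tallest frizzled block in both 501Mel bars and the blue FZD6 block in all Hermes 3A bars, and the green TCF7 block shrinks from 28.0% and 37.6% in 501Mel to 3.52% to 4.34% in Hermes 3A.

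Of the called members with large differences, 6 are placed here. In GENCODE 29 coordinates on GRCh38, a later build than the hg19 used by the authors for alignment, RNF43 (ENSG00000108375) lies at chr17:58352500-58417595, AXIN2 (ENSG00000168646) at chr17:65528563-65561647, TCF7 (ENSG00000081059) at chr5:134114711-134151865 and NKD2 (ENSG00000145506) at chr5:1008829-1038943. DKK1 (ENSG00000107984) lies at chr10:52314296-52318042 and DKK3 (ENSG00000050165) at chr11:11963106-12009769. The counts cover exons as far as gene counts allow, and no exon or isoform can be told apart in them.

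Since RNF43, NKD2 and TCF7 were higher in 501Mel and DKK1 was higher in Hermes 3A by large differences, their promoters are shown here, as the 250 bases before the start of the RefSeq transcript (GRCh38.p14), read 5′ to 3′ on the gene's strand, with matches to the TCF/LEF core in capitals. The intervals are chr5:1008552-1008801 (plus strand) for NKD2, chr17:58417535-58417784 (minus strand) for RNF43, chr5:134115363-134115612 (plus strand) for TCF7 and chr10:52314031-52314280 (plus strand) for DKK1.
NKD2: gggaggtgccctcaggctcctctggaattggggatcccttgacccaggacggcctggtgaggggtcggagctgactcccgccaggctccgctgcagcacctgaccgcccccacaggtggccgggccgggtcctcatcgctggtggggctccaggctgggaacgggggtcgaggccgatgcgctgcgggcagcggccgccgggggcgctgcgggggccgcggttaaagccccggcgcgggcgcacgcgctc
RNF43: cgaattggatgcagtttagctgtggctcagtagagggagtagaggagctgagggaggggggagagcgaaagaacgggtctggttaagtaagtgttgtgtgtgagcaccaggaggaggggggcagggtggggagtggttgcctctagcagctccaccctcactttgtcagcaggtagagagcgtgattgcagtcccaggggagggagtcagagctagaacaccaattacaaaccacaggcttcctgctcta
TCF7: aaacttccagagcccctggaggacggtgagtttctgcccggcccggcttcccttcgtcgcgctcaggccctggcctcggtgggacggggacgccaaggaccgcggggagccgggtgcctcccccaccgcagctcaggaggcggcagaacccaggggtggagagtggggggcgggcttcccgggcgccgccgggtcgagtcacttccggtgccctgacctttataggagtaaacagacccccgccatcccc
DKK1: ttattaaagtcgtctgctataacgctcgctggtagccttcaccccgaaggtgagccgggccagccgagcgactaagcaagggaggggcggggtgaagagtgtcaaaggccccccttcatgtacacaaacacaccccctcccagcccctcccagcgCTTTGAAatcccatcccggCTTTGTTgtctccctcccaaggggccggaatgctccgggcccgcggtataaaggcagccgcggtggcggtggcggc

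The core was searched on both strands as CTTTG followed by 2 bases that are each A or T, in the window from 250 bases before to 50 bases after the start. It was found in 13.9% of 27305 RefSeq promoters and in 2 of the 34 member promoters that could be matched, those of DKK1 and WNT3. None of the 5 matched promoters of members higher in 501Mel held it, and 1 of the 8 of members higher in Hermes 3A did. No promoter was matched for AXIN2, NKD1, ZNRF3, FZD7 and DKK2, higher in 501Mel, or for FZD2, FZD6, DKK3 and SFRP1, higher in Hermes 3A. The DKK1 matches were CTTTGAA, 95 bases before the start, and CTTTGTT, 76 bases before it. The 6-base E-boxes CATGTG and CACGTG, sequences that MITF can bind, were present in 11.2% and 7.43% of all promoters, and in 1 (WNT2B) and 0 of the 34. Median GC content was 69.7% for members higher in 501Mel and 70.3% for members higher in Hermes 3A, against 58.3% for all promoters. These matches describe letters in a short window. Sites further away were not searched.

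Beyond the 49 members, 45 of 56 other genes of the pathway were tested, covering ligand export, R-spondins and their receptors, Dishevelled and kinases, co-activators and the planar polarity branch. Of these, 11 were called higher in 501Mel, 9 higher in Hermes 3A and 25 were not called. The 44.4% called compares with 48.3% of all genes, and their median log2 fold change was -0.14. NOTUM, an extracellular enzyme that inactivates WNT ligands and another feedback inhibitor, had 116 counts in 501Mel and 2 in Hermes 3A, a depth-scaled ratio of 80.7 with a 95% counting interval of 21.9 to 675 (adjusted p = 0.00112). SOSTDC1, a secreted antagonist of WNT and BMP signals, was at 2.42 and 1.16 CPM in 501Mel and at 0.122 CPM or less in Hermes 3A (log2 fold change 4.94, adjusted p = 0.00300). Both inhibitors were therefore higher in the melanoma line, the only line in which they were read often enough to be tested.

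LRP4, a receptor related to LRP5 and LRP6, was higher in 501Mel (log2 fold change 1.72, adjusted p = 0.000602), as was LGR4, a receptor for R-spondins (log2 fold change 1.64, adjusted p = 0.00154). The planar polarity genes CELSR1 (log2 fold change -5.83, adjusted p = 3.75e-05), PRICKLE2 (-3.37, adjusted p = 0.0108) and CELSR3 (-1.32, adjusted p = 0.0350) were higher in Hermes 3A, as was the kinase CSNK1D (-1.48, adjusted p = 0.000238). CELSR3 kept its call in only 1 of the 5 fits that left out a library. Of the other planar polarity genes on the list, CELSR2 (0.57), PRICKLE1 (0.37), VANGL1 (-0.43) and VANGL2 (-0.32) were not called.

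A list of 23 further genes known in other systems as targets of beta-catenin did not move in one direction. It held none of the members, neither AXIN2, NKD1, RNF43 and ZNRF3, which were higher in 501Mel, nor DKK1, which was higher in Hermes 3A. Of 19 tested, 5 were called higher in 501Mel, 7 higher in Hermes 3A and 7 were not called. The share called was 63.2%, against 48.3% of all genes, and the median log2 fold change was -0.32. TBX3, a T-box factor, was at 45.4 and 80.8 CPM in 501Mel and at 0.264 to 0.299 CPM in Hermes 3A (log2 fold change 7.72, adjusted p = 1.28e-05). APCDD1, a membrane inhibitor of WNT signals, was at 509 and 531 CPM in 501Mel and at 4.79 to 5.36 CPM in Hermes 3A (log2 fold change 6.62, adjusted p = 3.45e-06). The Notch ligand JAG1 (log2 fold change 1.02, adjusted p = 0.0133) and the receptor TNFRSF19 (0.77, adjusted p = 0.0246) were higher by less. JAG1 kept its call in 4 and TNFRSF19 in 2 of the 5 fits that left out a library.

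In the other direction, CD44, a receptor for hyaluronan, was at 0.372 and 0.158 CPM in 501Mel and at 785, 1147 and 1115 CPM in Hermes 3A (log2 fold change -11.9, adjusted p = 5.94e-06). The homeobox gene MSX2 was at 0.163 CPM or less in 501Mel and at 6.24 to 6.83 CPM in Hermes 3A (log2 fold change -6.09, adjusted p = 0.000345). SOX9, a factor of the neural crest, and FOSL1, a subunit of AP-1, were also higher in Hermes 3A (log2 fold changes -4.33 and -3.95, adjusted p = 0.0104 and 0.00722). CD44, MSX2 and SOX9 were read often enough to be tested only in Hermes 3A.

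**Figure D4:**
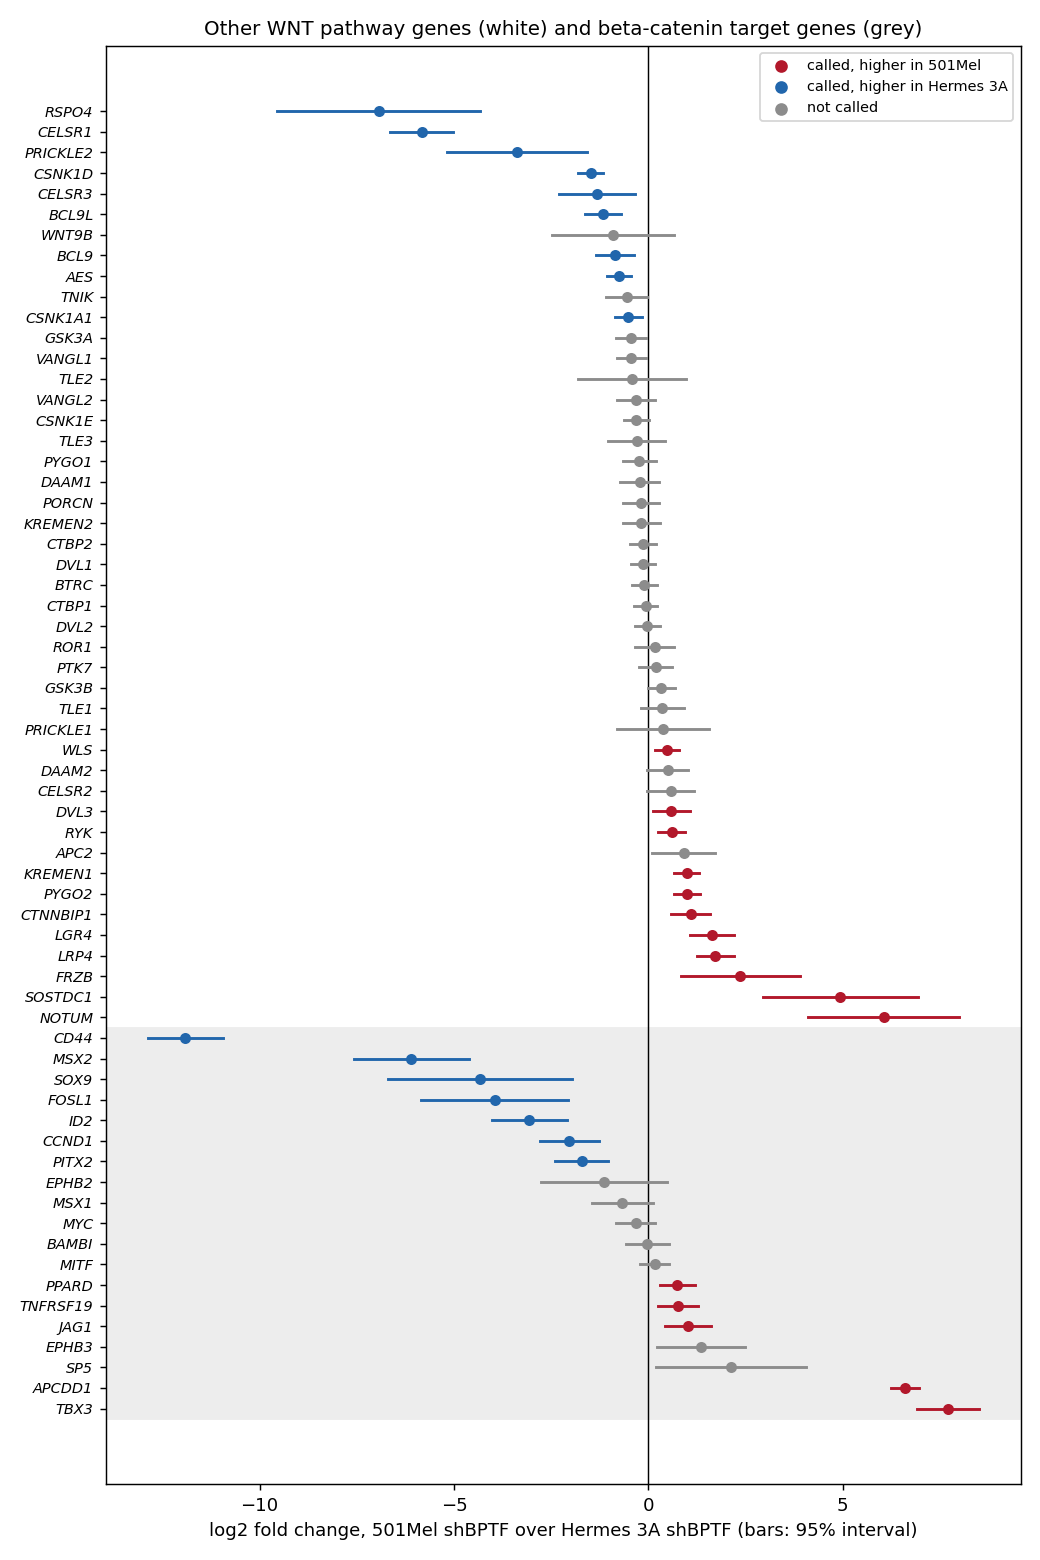
Log2 fold change of 501Mel over Hermes 3A with 95% intervals for the 45 tested genes of the other pathway list (white) and the 19 tested beta-catenin targets (grey), each list sorted by its value and coloured by call. For the other pathway genes the median absolute change is 0.51 and 25 of the 45 are grey points, whereas the targets spread from CD44 at -11.9 to TBX3 at 7.72; the interval of RSPO4 belongs to a fit with 0 counts in 501Mel, where the count allows only that it was at least 10.3-fold higher in Hermes 3A.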

How the data were processed

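The authors deposited raw read counts per Ensembl gene, 1 table for each library, from ribosomal RNA-depleted total RNA. The libraries were treated with duplex-specific nuclease, which removes part of the most abundant cDNA and so compresses the levels of highly expressed genes. The submitters' processing notes name CASAVA 1.8, TopHat 1.4.1, Bowtie 0.12.7 and hg19. The counting tool, its annotation and its strand setting are not given in the sources used here. The tables of 501Mel listed 37259 genes and those of Hermes 3A 34033, of which 6230 and 3004 were in one line's tables alone; a gene not listed is not a count of 0, and the 31029 shared genes were used.

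Counts were scaled by TMM over the full library totals, filtered with filterByExpr and tested with edgeR 4.0.16 (R 4.3.3; quasi-likelihood, robust, cell line as the only term), with DESeq2 1.42.0 as an alternative. CPM used the full totals without TMM factors. SE was taken from the log2 fold change and its F statistic. Lengths and symbols came from GENCODE 29 and promoters from RefSeq. Groups came from the sample titles. The study's methods say that infections were repeated, but the sources used here do not say which libraries came from separate infections or cultures, so p-values measure only the spread between these samples, which may be technical. Replicates of a line differed by more than sampling noise, so none was counted as a repeat. The code was tested on simulated counts. No test combined members, and no p was adjusted over a list alone.

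The members and lists were chosen with earlier results of these data known. Any of the 49 members could be named, with every library's value for called members and for those at 5 CPM or more on average in either line. From the other pathway list and the target list, the 4 called genes with the largest absolute log2 fold change in each direction were named, among those with a mean of at least 1 CPM in the higher line. Alternatives were DESeq2, its size factors in edgeR, total counts alone, no filter, at least 10 counts in every library, a 2-fold minimum, a replicate block, leaving out each library, other gene lengths and, chosen after seeing the data, the union of both tables.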

Additional observations from a re-analysis of the deposited data

How the results depend on the processing

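Of the 22 called members, 18 kept their call under each of the 12 alternative fits in which they were tested and none changed sign; DKK1, FZD2, SFRP1 and TLE4 lost theirs under at least 1. Leaving out a library gave 20 to 22 called members, 13 to 24 called genes of the other pathway list (13 without 501Mel replicate 2) and 2863 to 4613 genes higher in 501Mel over all genes (2863 without 501Mel replicate 1). The 2-fold minimum was not among the 12 fits. Under it LEF1 (log2 fold change 0.96) lost its call, which left 21 called members, and the other pathway list also fell to 13 called. The signs that turned belonged to members that were not called. These were AXIN1 (0.057 with total counts alone, 0.032 with at least 10 counts in every library, 0.068 under the replicate block, and -0.085 to 0.030 over the fits that left out a library), APC (0.012 with total counts alone and -0.18 to 0.037 over those fits) and, over those fits, LRP6 (-0.24 to 0.48), WNT3 (-0.17 to 1.79) and WNT2B (-0.37 to 0.43), each of these 3 below zero without 501Mel replicate 1. The cause was not tested. WNT5A passed the threshold with total counts alone (adjusted p = 0.0394), without the filter (0.0251) and with at least 10 counts in every library (0.0489). It missed the threshold under the replicate block (0.112), and TLE4 missed it with total counts alone (0.0511). Total counts alone moved the median of all genes by 0.06 on the log2 scale. The replicate block gave 22 called members (10 and 12) and 7311 called genes in all. Same-numbered libraries correlated in their deviations at 0.109 and 0.149. With 2 libraries of 501Mel, their deviations mirror each other, so both values rest on a single contrast and are not independent. The labels do not tie a number to a batch, so the fit without the block was kept. Shares moved with the length used, being 18.2% for WNT5A in Hermes 3A, 71.2% and 67.1% for LEF1 in 501Mel and Hermes 3A and 17.1% for TCF7 in 501Mel with union exon length; 56.9% (union exon length) and 46.0% (no length) for FZD7 in 501Mel; 41.5% and 37.1% for FZD6 in Hermes 3A; 83.5% and 69.9% for DKK1 in Hermes 3A; and, with no length, 34.3% for DKK1 in 501Mel and 64.6% for LEF1 in Hermes 3A. Depth limited the 14 members that were not tested, 7 of them at 3 counts or fewer in every library that listed them.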
